A study of Homo sapiens with 16 samples.

Results

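The BCL2 family decides whether a cell keeps or loses the outer membrane of its mitochondria, and its members were read in 2 drug-resistant human melanoma cell lines before and after their drug was withdrawn. There were 10 members, the rows of the count table that carry their symbols, out of 30813 genes in the table. They comprised 5 BH3-only death genes (BMF, BCL2L11, PMAIP1, BBC3 and BIK), 4 survival genes (MCL1, BCL2A1, BCL2L1 and BCL2) and the pore-forming effector BAK1. The tested genes numbered 9, because BIK had too few counts in too many libraries to pass the filter in either line. Gene expression was measured by RNA sequencing of total RNA in 16 libraries, 2 for each of 8 groups.

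In A375, a derivative called DR A375, cells had been exposed to DMSO in place of drug for 6, 24 or 48 h, against cells kept on dabrafenib at 0.5 µM and trametinib at 0.05 µM. In 451Lu, a derivative called 451Lu BR, DMSO replaced drug for 24, 72 or 120 h, against cells kept on dabrafenib at 1 µM. Dabrafenib inhibits the kinase BRAF and trametinib inhibits MEK, the next kinase of the MAPK pathway. For 451Lu the treatment note names dabrafenib alone, while the source name gives resistance to both drugs, and the dose printed here follows the treatment note. Line and drug regimen therefore cannot be told apart. No on-drug group was matched to each time, so time in culture and withdrawal cannot be told apart either. Each line is a single derivative, and the labels give neither whether it is 1 clone nor whether paired libraries were grown as separate cultures. The p-values then measure only the spread between these samples, which may be technical.

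Proteins of the BCL2 family meet on the outer mitochondrial membrane. Survival members bind and restrain the effectors BAX and BAK, BH3-only members block the survival members or activate the effectors, and freed effectors open pores that release cytochrome c and start the caspases. In melanoma with activated BRAF the pathway is known to reach several members, since ERK phosphorylation marks the BCL2L11 product for degradation and inhibition of the pathway raises BMF and BCL2L11. Transcript counts, as here, do not read these protein steps.

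Library totals ran from 9714190 to 16691725 counts, and levels are CPM, counts scaled to a common library size. The withdrawal check DUSP6, an ERK phosphatase that is transcribed when ERK is active, averaged 321 ± 1.22, 132 ± 5.18 and 148 ± 4.64 CPM at 6, 24 and 48 h off drug in A375, against 27.8 ± 0.647 CPM on drug (SD, n = 2 each). In 451Lu it averaged 506 ± 67.6, 1178 ± 46.8 and 1259 ± 64.6 CPM at 24, 72 and 120 h off drug, against 22.7 ± 2.16 CPM on drug. Each of these 6 increases passed the test. All 8 melanocyte markers looked for were in the table, and their summed level was lower off drug in both lines, at 975 to 1067 CPM at 48 h in A375, against 5046 to 5167 CPM on drug, and at 1014 to 1147 CPM at 120 h in 451Lu, against 11250 to 11830 CPM on drug. On drug most of the sum was DCT in A375, at 2964 CPM, and PMEL in 451Lu, at 9259 CPM. Not every marker followed the sum to this extent. SOX10 in A375 averaged 544 ± 44.8 CPM at 48 h, against 608 ± 9.83 CPM on drug. S100B in 451Lu averaged 70.8 ± 14.7 CPM at 120 h, against 78.3 ± 1.07 CPM on drug. Of 10 markers of other cell types 6 were in the table, with summed levels of 0.777 to 3.87 CPM in every A375 library. In 451Lu their sum was 118 to 119 CPM at 120 h off drug, against 0.954 to 1.39 CPM on drug. Nearly all of that sum was the endothelial marker PECAM1, at 118 ± 0.713 CPM at 120 h. VWF, another endothelial marker of the list, averaged 0.365 ± 0.0306 CPM at 120 h in 451Lu, against 0.960 ± 0.202 CPM on drug. PTPRC, EPCAM and ALB had 0 counts at each 451Lu time off drug. The part of these shifts in the results on the BCL2 family was not tested. In such bulk samples fewer cells of a type and less RNA per cell cannot be told apart.

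**Figure D1:**
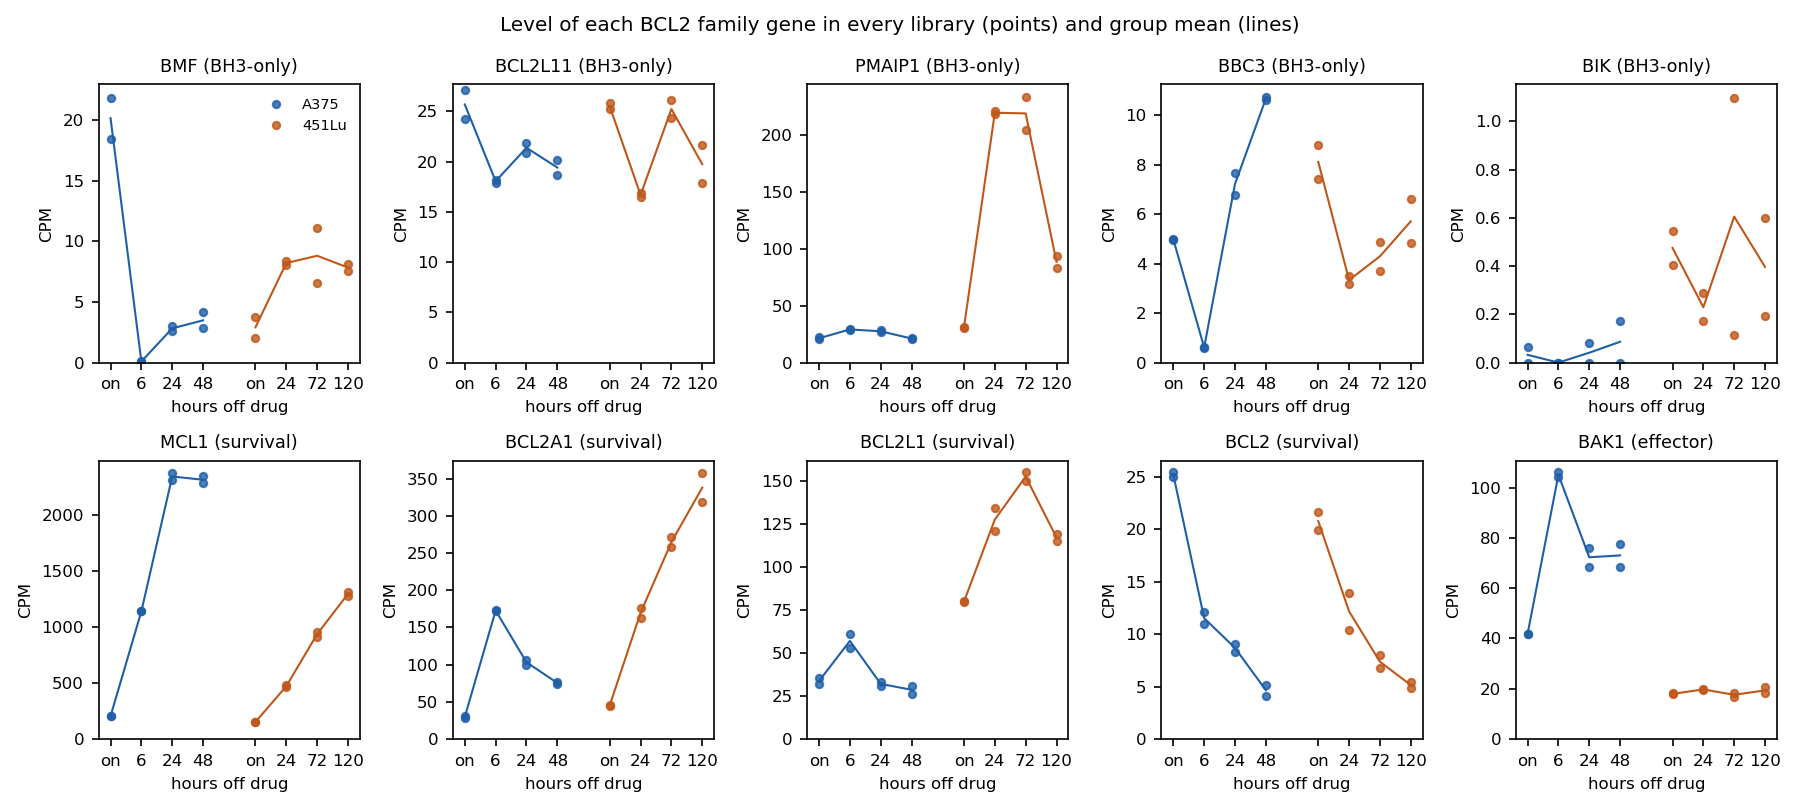
Level of each of the 10 genes in every library, in CPM on a linear axis that starts at 0, by hours off drug with equally spaced groups (A375 blue, 451Lu orange, points are libraries and lines join group means, n = 2). MCL1 and BCL2A1 sit above their on-drug level at every time in both lines and BCL2 below it, while BMF lies below its on-drug level in A375 and above it in 451Lu.

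The first question was how the BH3-only death genes changed when the drug was taken away. BMF moved in opposite directions in the 2 lines: it fell in A375 and rose in 451Lu at every time off drug. PMAIP1 rose 7.20-fold in 451Lu at 24 h and by far less in A375, BBC3 fell at the first time in both lines and was above its on-drug level in A375 from 24 h, and BCL2L11 fell by at most 1.50-fold. An adjusted p under 0.05 from edgeR's quasi-likelihood test, with Benjamini-Hochberg adjustment over all genes, was the threshold throughout. The comparisons of a line share its 2 on-drug libraries, so each is given by its own values.

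BMF (ENSG00000104081, chromosome 15, 40087890 to 40108892, minus strand, build GRCh38) encodes a BH3-only protein tied to the cytoskeleton until it is freed to bind survival proteins. A RefSeq promoter of BMF (GRCh38.p14, minus strand, chr15:40108830-40109129) is shown because no member changed more. It holds none of the 5 motifs searched on both strands. A further RefSeq promoter of the gene (chr15:40106917-40107216) holds none either. This says only that these letters are not in those windows. The motifs were GTAAACA for FOXO factors, TGANTCA for AP-1, CCGGAAGT for ETS factors, TGACGT as the core of a CRE site and CACGTG as an E-box. The RefSeq promoters of BCL2A1, BCL2 and BAK1 held none of these motifs either.
BMF promoter: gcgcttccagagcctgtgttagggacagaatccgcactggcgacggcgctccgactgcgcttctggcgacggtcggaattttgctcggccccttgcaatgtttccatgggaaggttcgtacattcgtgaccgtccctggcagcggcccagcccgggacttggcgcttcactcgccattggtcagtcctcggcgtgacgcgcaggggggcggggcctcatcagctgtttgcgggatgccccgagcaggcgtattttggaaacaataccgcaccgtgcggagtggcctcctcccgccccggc
In A375, BMF stood at 21.8 and 18.5 CPM on drug, 0.0853 and 0.0895 CPM at 6 h, 3.02 and 2.62 CPM at 24 h and 2.82 and 4.14 CPM at 48 h. Those 6 h values are 1 count in each library, so BMF was almost lost at 6 h and had come back in part by 24 h, with no overlap between any time off drug and the on-drug libraries. Over both libraries it had 2 counts at 6 h, against 683 on drug, a level 232-fold lower after scaling with a counting interval (95%, counting error only) of 64.0 to 1920, and the fall passed the test (adjusted p = 3.58e-21). The log2 fold change was -2.86 ± 0.15 (SE, adjusted p = 3.79e-18) at 24 h and -2.57 ± 0.15 (SE, adjusted p = 1.39e-16) at 48 h. In 451Lu, BMF stood at 2.04 and 3.77 CPM on drug, 8.33 and 8.06 CPM at 24 h, 6.52 and 11.1 CPM at 72 h and 7.55 and 8.11 CPM at 120 h. Every library off drug lay above both on-drug libraries, which started low and differed from each other. The fitted log2 change against on drug was 1.50 ± 0.25 (SE, adjusted p = 0.000111) at 24 h, 1.58 ± 0.26 (SE, adjusted p = 5.65e-05) at 72 h and 1.38 ± 0.26 (SE, adjusted p = 0.000177) at 120 h. Over all 8 groups BMF was highest in A375 on drug and lowest in A375 at 6 h, and the 3 times off drug of 451Lu, which came next to A375 on drug, overlapped one another. Its antisense neighbour BMF-AS1 had 1 count over the 16 libraries.

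PMAIP1 (ENSG00000141682, chromosome 18, 59899948 to 59904306, plus strand) encodes NOXA, a BH3-only protein that binds MCL1 and hastens its degradation. PMAIP1 rose more in 451Lu than in A375. Its RefSeq promoter (GRCh38.p14, plus strand, chr18:59899746-59900045) is shown because it holds a CRE core, in capitals as its reverse complement ACGTCA, 56 bases before the start, a motif found in 7.98% of 35116 RefSeq promoters of the same length. The ATF4 factor is known to act on this gene, and a match is a description and not a bound site.
PMAIP1 promoter: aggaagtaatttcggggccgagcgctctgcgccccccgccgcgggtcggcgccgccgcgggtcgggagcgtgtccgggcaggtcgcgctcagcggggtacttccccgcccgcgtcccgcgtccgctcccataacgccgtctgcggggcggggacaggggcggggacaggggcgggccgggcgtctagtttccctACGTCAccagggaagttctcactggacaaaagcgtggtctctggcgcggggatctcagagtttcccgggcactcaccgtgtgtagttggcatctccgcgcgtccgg
In 451Lu, PMAIP1 stood at 31.4 and 30.7 CPM on drug, 218 and 220.4 CPM at 24 h, 204 and 233 CPM at 72 h and 93.6 and 83.2 CPM at 120 h. The 24 h and 72 h libraries overlapped each other and lay far above the rest, and the 120 h libraries lay between them and the on-drug ones. Relative to on drug, the log2 fold change was 2.85 ± 0.08 (SE, adjusted p = 4.06e-14) at 24 h, 2.82 ± 0.08 (SE, adjusted p = 1.96e-14) at 72 h and 1.50 ± 0.08 (SE, adjusted p = 5.03e-11) at 120 h. In A375, PMAIP1 stood at 20.4 and 22.2 CPM on drug, 28.8 and 29.4 CPM at 6 h, 26.5 and 28.4 CPM at 24 h and 21.5 and 20.7 CPM at 48 h. Both early times lay above the on-drug libraries and the 48 h libraries overlapped them. On the log2 scale the change was 0.41 ± 0.09 (SE, adjusted p = 6.08e-05) at 6 h, 0.33 ± 0.08 (SE, adjusted p = 0.000712) at 24 h and -0.05 ± 0.09 (SE, adjusted p = 0.656) at 48 h, the last not past the threshold. With plain library totals the A375 changes at 6 and 24 h were 0.15 and 0.09 on the log2 scale and lost their calls. Under the same totals the 48 h change was -0.23 and became a call.

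BBC3 (ENSG00000105327, chromosome 19, 47220822 to 47232766, minus strand) encodes PUMA, a BH3-only protein that binds every survival member. Its RefSeq promoter (GRCh38.p14, minus strand, chr19:47232618-47232917) is shown because it is the member with 2 of the motifs, in capitals: an E-box 232 bases before the start, a motif in 7.26% of the RefSeq promoters, and an AP-1 site 113 bases before it, in 7.71%.
BBC3 promoter: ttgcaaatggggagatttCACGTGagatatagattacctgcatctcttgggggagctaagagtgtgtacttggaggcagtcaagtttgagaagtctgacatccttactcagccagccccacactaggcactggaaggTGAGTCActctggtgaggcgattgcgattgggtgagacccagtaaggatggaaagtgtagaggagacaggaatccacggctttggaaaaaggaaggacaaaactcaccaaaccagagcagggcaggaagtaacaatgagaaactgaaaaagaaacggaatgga
In A375, BBC3 stood at 4.97 and 5.00 CPM on drug, 0.597 and 0.627 CPM at 6 h, 7.66 and 6.79 CPM at 24 h and 10.7 and 10.6 CPM at 48 h. It was lowest at 6 h, with 7 counts in each library, and by 48 h both libraries were at more than 2-fold the on-drug level. The log2 fold change was -3.05 ± 0.29 (SE, adjusted p = 2.27e-11) at 6 h, 0.51 ± 0.15 (SE, adjusted p = 0.00297) at 24 h and 1.06 ± 0.15 (SE, adjusted p = 6.19e-08) at 48 h. The call at 24 h was lost with DESeq2, with plain library totals and without the first 24 h library, where the log2 change was 0.42. In 451Lu, BBC3 stood at 7.42 and 8.83 CPM on drug, 3.16 and 3.52 CPM at 24 h, 3.71 and 4.89 CPM at 72 h and 6.60 and 4.83 CPM at 120 h. Every library off drug lay below both on-drug libraries, most clearly at 24 h. The fitted log2 change against on drug was -1.26 ± 0.20 (SE, adjusted p = 5.41e-05) at 24 h, -0.91 ± 0.20 (SE, adjusted p = 0.000878) at 72 h and -0.52 ± 0.18 (SE, adjusted p = 0.0191) at 120 h. That last call was lost with DESeq2 (adjusted p = 0.171), without the second on-drug library (log2 change of -0.39) and without the second 120 h library (log2 change of -0.37).

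BCL2L11 (ENSG00000153094, chromosome 2, 111119378 to 111168447, plus strand) encodes BIM, a BH3-only protein that binds every survival member and is made in several isoforms, which counts per gene cannot separate. Its RefSeq promoter (GRCh38.p14, plus strand, chr2:111120664-111120963) is shown because FOXO factors are known to act on this gene and a FOXO motif lies in it, in capitals, 223 bases before the start, a motif found in 3.42% of the RefSeq promoters.
BCL2L11 promoter: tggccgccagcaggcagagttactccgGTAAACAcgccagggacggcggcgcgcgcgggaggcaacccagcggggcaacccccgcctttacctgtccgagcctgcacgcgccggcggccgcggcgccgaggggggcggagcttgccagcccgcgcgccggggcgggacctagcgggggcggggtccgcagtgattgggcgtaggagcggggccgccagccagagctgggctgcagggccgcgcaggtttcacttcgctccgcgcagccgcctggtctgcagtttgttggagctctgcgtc
In A375, BCL2L11 stood at 27.1 and 24.2 CPM on drug, 17.9 and 18.2 CPM at 6 h, 20.9 and 21.9 CPM at 24 h and 20.2 and 18.6 CPM at 48 h. All libraries off drug lay below those on drug. Relative to on drug, the log2 fold change was -0.55 ± 0.09 (SE, adjusted p = 2.77e-06) at 6 h, -0.31 ± 0.09 (SE, adjusted p = 0.0017) at 24 h and -0.44 ± 0.09 (SE, adjusted p = 6.19e-05) at 48 h. The 24 h call was lost with DESeq2 and without the first on-drug library, where the log2 change was -0.22. In 451Lu, BCL2L11 stood at 25.2 and 25.8 CPM on drug, 16.5 and 16.9 CPM at 24 h, 24.3 and 26.2 CPM at 72 h and 17.8 and 21.6 CPM at 120 h. Only the 72 h libraries overlapped those on drug. On the log2 scale the change was -0.58 ± 0.10 (SE, adjusted p = 0.000186) at 24 h, -0.01 ± 0.10 (SE, adjusted p = 0.932) at 72 h, not past the threshold, and -0.39 ± 0.10 (SE, adjusted p = 0.00322) at 120 h. Of its 6658 exon bases 727 (10.9%) are shared with the antisense gene MIR4435-2HG, and since the strand setting of the counts is not given, their reads cannot be told apart there. MIR4435-2HG, listed in the table as MIR4435-1HG, averaged 52.0, 22.0 and 20.5 CPM at 6, 24 and 48 h off drug in A375, against 17.6 CPM on drug, and 36.2, 13.4 and 6.89 CPM at 24, 72 and 120 h off drug in 451Lu, against 28.7 CPM on drug.

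BIK (ENSG00000100290, chromosome 22, 43110748 to 43129712, plus strand), a BH3-only gene of the endoplasmic reticulum, was barely counted. Summed over the 2 libraries of a group it had 1, 0, 1 and 2 counts on drug and at 6, 24 and 48 h in A375, and 15, 6, 12 and 9 counts on drug and at 24, 72 and 120 h in 451Lu. In 451Lu at 72 h its 2 libraries had 1 and 11 counts. No change of BIK could be read at this depth.

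The second question was whether the survival genes moved the other way. MCL1 and BCL2A1 rose at every time in both lines, by up to 11.2-fold for MCL1 in A375 and 7.39-fold for BCL2A1 in 451Lu. BCL2 fell at every time in both lines, and BCL2L1 rose in 451Lu but only at 6 h in A375. The 4 survival genes therefore did not move as one group.

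MCL1 (ENSG00000143384, chromosome 1, 150574551 to 150579738, minus strand) encodes a survival protein with a very short life that restrains BAK. In A375, MCL1 stood at 203 and 205 CPM on drug, 1138 and 1137 CPM at 6 h, 2366 and 2312 CPM at 24 h and 2339.7 and 2279 CPM at 48 h. The 24 h and 48 h libraries overlapped and were the highest of all groups. The log2 fold change was 2.44 ± 0.04 (SE, adjusted p = 4.81e-32) at 6 h, 3.48 ± 0.04 (SE, adjusted p = 1.69e-36) at 24 h and 3.47 ± 0.04 (SE, adjusted p = 2.00e-36) at 48 h. In 451Lu, MCL1 stood at 152 and 152 CPM on drug, 463 and 479 CPM at 24 h, 914 and 956 CPM at 72 h and 1278 and 1308 CPM at 120 h. It stepped up at each time with no overlap between neighbouring times. The fitted log2 change against on drug was 1.66 ± 0.06 (SE, adjusted p = 4.01e-13) at 24 h, 2.62 ± 0.06 (SE, adjusted p = 1.22e-15) at 72 h and 3.07 ± 0.06 (SE, adjusted p = 1.50e-16) at 120 h. Over all 8 groups the mean in A375 at 24 h was 15.4-fold that of 451Lu on drug, the lowest group. Splicing can turn the MCL1 transcript into a form that promotes death, which counts per gene do not separate.

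BCL2A1 (ENSG00000140379, chromosome 15, 79960889 to 79971446, minus strand) encodes a short-lived survival protein that MITF, the master regulator of melanocytes, is known to activate in melanoma. In A375, BCL2A1 stood at 30.8 and 28.7 CPM on drug, 174 and 172 CPM at 6 h, 107 and 99.6 CPM at 24 h and 76.8 and 74.0 CPM at 48 h. It was highest at 6 h and lower at each later time, always above the on-drug libraries. Relative to on drug, the log2 fold change was 2.49 ± 0.06 (SE, adjusted p = 2.72e-28) at 6 h, 1.76 ± 0.06 (SE, adjusted p = 2.25e-23) at 24 h and 1.31 ± 0.07 (SE, adjusted p = 8.96e-19) at 48 h. In 451Lu, BCL2A1 stood at 46.0 and 44.5 CPM on drug, 176 and 163 CPM at 24 h, 258 and 272 CPM at 72 h and 357 and 318 CPM at 120 h. There the order ran the other way, with the highest level at the last time. On the log2 scale the change was 1.94 ± 0.07 (SE, adjusted p = 1.09e-12) at 24 h, 2.55 ± 0.07 (SE, adjusted p = 2.15e-14) at 72 h and 2.89 ± 0.07 (SE, adjusted p = 2.86e-15) at 120 h. Over all groups only 451Lu at 24 h and A375 at 6 h overlapped as neighbours in level.

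BCL2L1 (ENSG00000171552, chromosome 20, 31664452 to 31723989, minus strand) encodes BCL-XL in its long form and a death-promoting protein in its short form, which cannot be separated here. A RefSeq promoter of BCL2L1 (GRCh38.p14, minus strand, chr20:31723914-31724213) holds the ETS motif CCGGAAGT 9 bases after the start. That motif is in 4.14% of the RefSeq promoters. Another RefSeq promoter of the gene (chr20:31722819-31723118) holds none of the motifs searched. In 451Lu, BCL2L1 stood at 80.0 and 80.1 CPM on drug, 135 and 121 CPM at 24 h, 155 and 150.2 CPM at 72 h and 115 and 119 CPM at 120 h. All libraries off drug lay above those on drug, with the highest at 72 h. The log2 fold change was 0.71 ± 0.06 (SE, adjusted p = 1.22e-07) at 24 h, 0.94 ± 0.07 (SE, adjusted p = 2.14e-09) at 72 h and 0.54 ± 0.07 (SE, adjusted p = 1.59e-06) at 120 h. In A375, BCL2L1 stood at 31.9 and 35.8 CPM on drug, 61.1 and 53.3 CPM at 6 h, 33.3 and 30.9 CPM at 24 h and 26.5 and 30.9 CPM at 48 h. Only the 6 h libraries lay above those on drug, the 24 h libraries overlapped them and the 48 h libraries lay below them. The fitted log2 change against on drug was 0.72 ± 0.08 (SE, adjusted p = 3.23e-10) at 6 h, -0.10 ± 0.08 (SE, adjusted p = 0.276) at 24 h, not past the threshold, and -0.26 ± 0.09 (SE, adjusted p = 0.00767) at 48 h. The small 48 h fall was lost with DESeq2, without the second on-drug library (log2 change of -0.18) and without the first 48 h library (log2 change of -0.15), and the 24 h value became a call under upper quartile factors (-0.24) and plain library totals (-0.33). Of its exon bases 43.0% are shared with the antisense gene ABALON, which is not among the genes in the table. Since the strand setting of the counts is not given, reads of the 2 genes cannot be told apart there.

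BCL2 (ENSG00000171791, chromosome 18, 63123346 to 63320128, minus strand), the founding survival gene of the family and a known target of MITF in melanocytes, fell step by step. In A375, BCL2 stood at 25.4 and 24.9 CPM on drug, 12.1 and 10.9 CPM at 6 h, 8.27 and 9.09 CPM at 24 h and 4.14 and 5.18 CPM at 48 h. In 451Lu, BCL2 stood at 21.6 and 19.9 CPM on drug, 10.4 and 13.9 CPM at 24 h, 6.74 and 7.99 CPM at 72 h and 4.89 and 5.41 CPM at 120 h. Neighbouring times did not overlap within either line, and the last time of each line was the lowest. In A375 the log2 fold change was -1.16 ± 0.10 (SE, adjusted p = 4.88e-12) at 6 h, -1.58 ± 0.10 (SE, adjusted p = 2.10e-15) at 24 h and -2.46 ± 0.13 (SE, adjusted p = 2.17e-18) at 48 h. In 451Lu it was -0.75 ± 0.13 (SE, adjusted p = 0.00014) at 24 h, -1.48 ± 0.15 (SE, adjusted p = 2.54e-07) at 72 h and -2.03 ± 0.16 (SE, adjusted p = 5.78e-09) at 120 h.

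BAK1 (ENSG00000030110, chromosome 6, 33572547 to 33580293, minus strand) encodes the effector BAK, which forms pores once freed from MCL1 and BCL-XL. In A375, BAK1 stood at 41.8 and 41.9 CPM on drug, 106 and 104 CPM at 6 h, 76.1 and 68.4 CPM at 24 h and 68.4 and 77.6 CPM at 48 h. It was highest at 6 h and stayed above the on-drug libraries. Relative to on drug, the log2 fold change was 1.29 ± 0.06 (SE, adjusted p = 4.95e-19) at 6 h, 0.76 ± 0.07 (SE, adjusted p = 1.74e-12) at 24 h and 0.77 ± 0.07 (SE, adjusted p = 2.47e-12) at 48 h. In 451Lu, BAK1 stood at 18.2 and 17.8 CPM on drug, 19.8 and 19.6 CPM at 24 h, 18.3 and 16.9 CPM at 72 h and 20.6 and 18.2 CPM at 120 h. Those 8 libraries lay within a narrow range, and no time passed the test. On the log2 scale the change was 0.17 ± 0.10 (SE, adjusted p = 0.181) at 24 h, -0.03 ± 0.11 (SE, adjusted p = 0.825) at 72 h and 0.10 ± 0.10 (SE, adjusted p = 0.409) at 120 h.

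**Figure D2:**
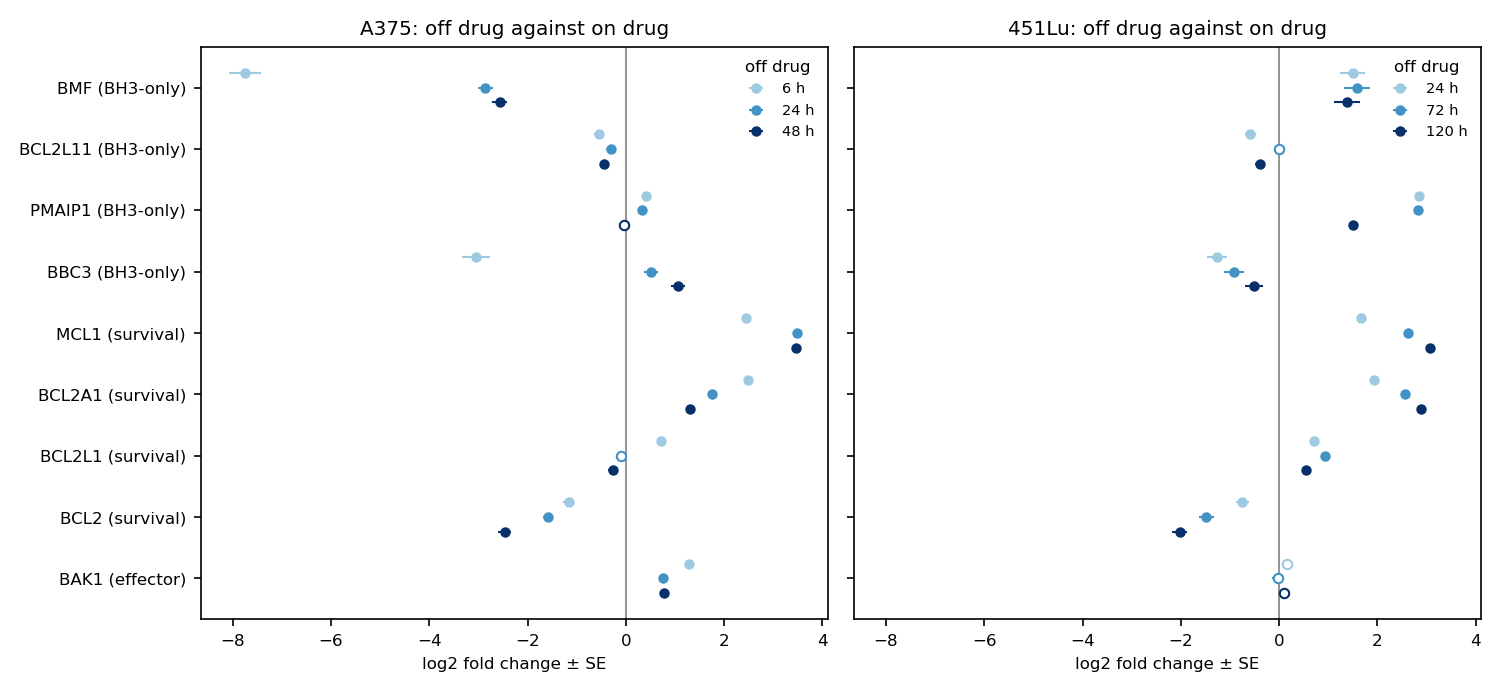
Fitted log2 fold change off drug against on drug with its SE, for 9 genes at 3 times in A375 (left) and 451Lu (right), with darker points for later times and open points where the test was not passed. MCL1 and BCL2A1 lie right of 0 and BCL2 left of 0 at all times, and BMF lies left of 0 in A375 and right of 0 in 451Lu.

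Large parts of the transcriptome moved, and the members' counts are to be read against that. In A375 at 6 h 5 of 9 tested members rose and 4 fell, against 35.1% and 38.1% of all genes tested. At 24 h 5 rose and 3 fell (all genes 36.2% and 36.3%), and at 48 h 4 rose and 4 fell (all genes 36.6% and 36%). In 451Lu 5 rose and 3 fell at 24 h (all genes 29.2% and 24.9%), 5 rose and 2 fell at 72 h (34.2% and 33.4%), and 5 rose and 3 fell at 120 h (37.3% and 36.6%). Being called is thus common to most genes in these comparisons. With a change of at least 2-fold added, 3 members rose and 3 fell in A375 at 6 h (all genes 10.4% and 13.6%), 2 and 2 at 24 h (9.79% and 13%), and 3 and 2 at 48 h (10.5% and 13.4%). In 451Lu 4 rose and 1 fell by at least 2-fold at each time, against 8.69% and 6.87% of genes at 24 h, 15.4% and 11% at 72 h and 18.5% and 14.4% at 120 h. The median log2 change of the tested members was 0.41, 0.33 and -0.05 at 6, 24 and 48 h in A375 and 0.71, 0.94 and 0.54 at 24, 72 and 120 h in 451Lu, while that of all genes lay between -0.06 and 0.03.

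The third question was how the members moved between successive times off drug. In A375 the step between 6 and 24 h reversed part of the first fall of BMF and all of that of BBC3. BMF rose with a log2 change of 4.89 ± 0.57 (SE, adjusted p = 2.31e-09) and BBC3 with 3.56 ± 0.27 (SE, adjusted p = 1.04e-13). MCL1 went on to rise (1.04 ± 0.04 SE, adjusted p = 8.17e-22), while BCL2A1 (-0.74), BCL2L1 (-0.82), BCL2 (-0.42) and BAK1 (-0.53) fell on the log2 scale. With BCL2L11 (0.24) that made 4 higher and 4 lower, against 35.5% and 34.2% of all genes. The BCL2L11 step lost its call with DESeq2, without either 6 h library and without the second 24 h library, with log2 changes of 0.21 to 0.25, and the BCL2 step lost it with DESeq2, without the first 6 h library and without the first 24 h library (log2 change of -0.34 in each of the last 2 cases). Between 24 and 48 h BBC3 rose (0.55 ± 0.14 SE, adjusted p = 0.00235) and PMAIP1 (-0.37), BCL2A1 (-0.45) and BCL2 (-0.88) fell, 1 higher and 3 lower against 14.2% and 15.7% of all genes. With DESeq2 the BBC3 step was not called (adjusted p = 0.124).

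In 451Lu the step between 24 and 72 h raised 4 members and lowered 1, against 25.9% and 25.5% of all genes. MCL1 rose with a log2 change of 0.96 ± 0.05 (SE, adjusted p = 5.72e-10), followed by BCL2A1 (0.61), BCL2L11 (0.57) and BCL2L1 (0.23), and BCL2 fell (-0.73). The BCL2L1 step lost its call with plain library totals (0.15), without the second 24 h library (0.15) and without the first 72 h library (0.20). Between 72 and 120 h 2 rose and 4 fell, against 16.6% and 16.1% of all genes. PMAIP1 fell most, with a log2 change of -1.32 ± 0.07 (SE, adjusted p = 2.86e-09), beside BCL2L11 (-0.38), BCL2L1 (-0.40) and BCL2 (-0.54), while MCL1 (0.45) and BCL2A1 (0.33) rose. The last BCL2 step had adjusted p = 0.0486 and was lost with DESeq2 and without any 1 of the 4 libraries (log2 changes of -0.43 to -0.65). That of BCL2L11 was lost with DESeq2, without the second 72 h library (-0.34) and without the first 120 h library (-0.25).

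The lines were also compared with each other. On drug, A375 stood above 451Lu for BMF (log2 difference 2.76 ± 0.19 SE, adjusted p = 7.89e-13), BAK1 (1.22), MCL1 (0.42) and BCL2 (0.28) and below it for BCL2L1 (-1.25 ± 0.08 SE, adjusted p = 6.03e-14), BBC3 (-0.71), BCL2A1 (-0.60) and PMAIP1 (-0.54). That is 4 higher and 4 lower of 9, against 37.9% and 39.3% of all genes. BCL2L11 was at nearly the same level in both (log2 difference 0.01 ± 0.09 SE, adjusted p = 0.902), and became a call under upper quartile factors (0.22) and plain library totals (0.22). The BCL2 difference was lost with DESeq2 and without the second 451Lu on-drug library (0.21). At 24 h, the only time off drug in both lines, PMAIP1, MCL1 and BCL2A1 rose in both lines, BCL2L11 and BCL2 fell in both, BMF and BBC3 changed in opposite directions, and BCL2L1 and BAK1 were called in 1 line.

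How far the lines differed in their response at 24 h was tested directly, as A375 minus 451Lu, and 4 members were higher and 4 lower, against 27.4% and 22% of all genes. BMF had the largest difference, -4.29 ± 0.31 (SE, adjusted p = 1.37e-11) on the log2 scale, as it fell in A375 and rose in 451Lu. PMAIP1 followed with -2.46 ± 0.12 (SE, adjusted p = 2.41e-15), its rise being larger in 451Lu. The rise of MCL1 was larger in A375 (1.89 ± 0.07 SE, adjusted p = 6.92e-18) and BBC3 went up in A375 and down in 451Lu (1.84 ± 0.24 SE, adjusted p = 5.43e-07). BCL2 (-0.76) fell further in A375. BCL2L1 (-0.74) was called higher at 24 h in 451Lu only, and BAK1 (0.66) in A375 only. The difference for BCL2A1 (-0.11 ± 0.10 SE, adjusted p = 0.357) did not pass the test, but did under upper quartile factors (-0.25) and plain library totals (-0.32). That for BCL2L11 (0.34 ± 0.13 SE, adjusted p = 0.0355) lost its call in 11 alternatives, among them DESeq2 and leaving out any 1 of 7 of the 8 libraries, with log2 values of 0.14 to 0.37.

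Summing each side gives a plain measure of death against survival transcripts among the chosen members, a description with no test. Other family genes are in neither sum, such as BCL2L2 at 61.7 CPM and BID at 32.3 CPM in 451Lu on drug. In A375 the summed level of the 4 survival genes over that of the 5 BH3-only genes was 4.06 ± 0.205 on drug, 28.8 ± 0.530 at 6 h, 42.2 ± 1.62 at 24 h and 44.2 ± 0.206 at 48 h (ratio of summed CPM, SD, n = 2). The survival sum was 2483 CPM at 24 h, against 293 CPM on drug, and the BH3-only sum was lower off drug, at 72.2 CPM on drug, 47.8 CPM at 6 h, 58.9 CPM at 24 h and 54.7 CPM at 48 h. In 451Lu the ratio was 4.39 ± 0.163 on drug, 3.15 ± 0.0440 at 24 h, 5.30 ± 0.410 at 72 h and 14.4 ± 0.669 at 120 h. On these sums the 2 lines began at a similar ratio on drug. In 451Lu both sums were higher at 24 h, the BH3-only sum at 248 CPM, against 68.1 CPM on drug, and the survival sum at 781 CPM, against 298 CPM on drug.

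By group, PMAIP1 held between 29.6% and 88.5% of the BH3-only CPM sum, and MCL1 between 51.1% and 95.5% of the survival CPM sum. Without both genes the ratio was 1.75, 12.9, 4.58 and 3.23 on drug and at 6, 24 and 48 h in A375, and 3.96, 10.9, 11.03 and 13.7 on drug and at 24, 72 and 120 h in 451Lu. The highest A375 ratio was then at 6 h, and 451Lu at 24 h lay above its on-drug value, not below it. The 2 lines were then no longer at a similar ratio on drug, at 1.75 in A375 and 3.96 in 451Lu. Divided by exon length, a scale chosen after the data were seen, the ratio was 4.62, 27.4, 35.0 and 36.9 in A375 and 4.80, 2.93, 4.81 and 13.9 in 451Lu at the same times.

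**Figure D3:**
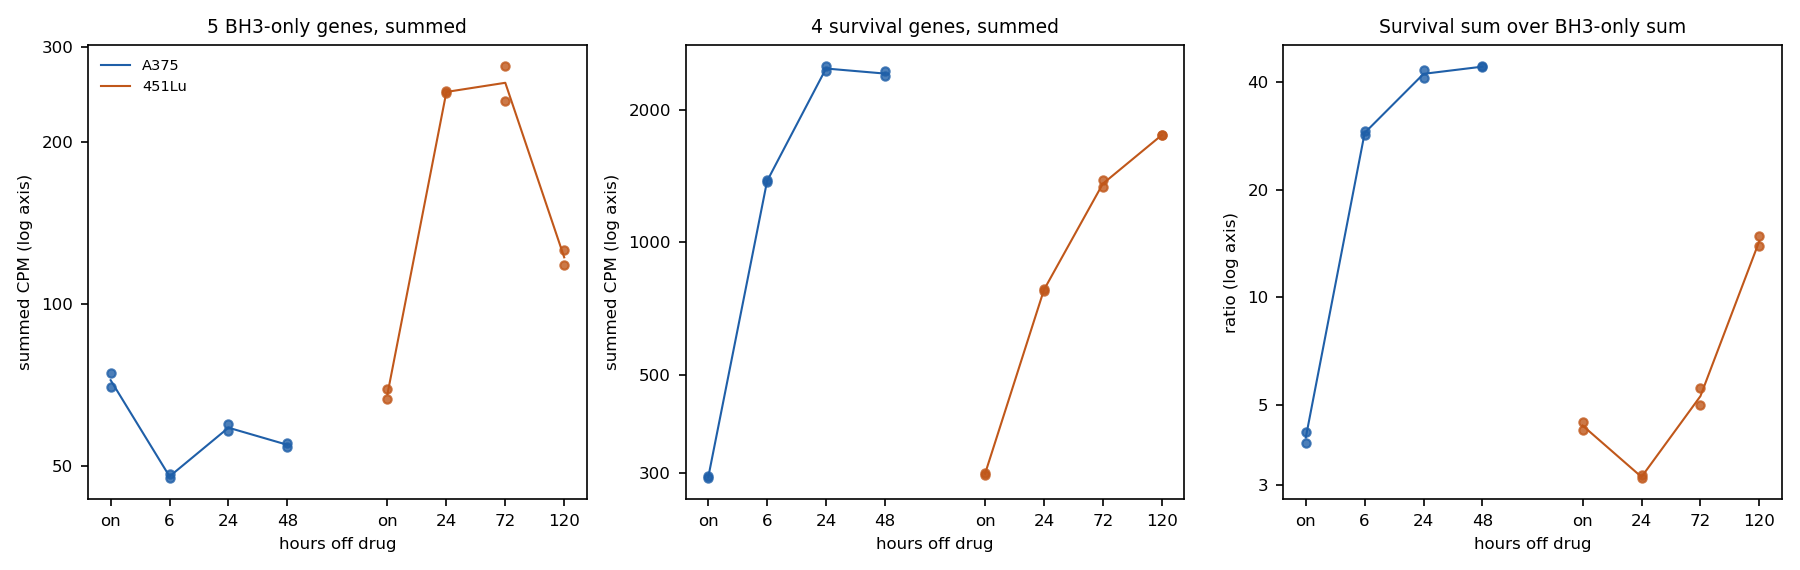
Summed CPM of the 5 BH3-only genes (left), of the 4 survival genes (middle) and their ratio (right), on log axes, by hours off drug with equally spaced groups (points are libraries, lines join group means). The ratio is 28.8 at 6 h in A375, and in 451Lu it is 3.15 at 24 h, 5.30 at 72 h and 14.4 at 120 h, with the BH3-only sum at 248 CPM at 24 h.

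Levels per kilobase of exon compare different genes only roughly, as the length is that of all annotated exons of a gene together. The transcripts of a gene are not separated by these counts. On that scale PMAIP1 was the most abundant BH3-only transcript in every group. It made up 81.7% of the BH3-only total at 6 h off drug in A375, against 51.05% on drug, and 94.9% at 24 h off drug in 451Lu, against 65.2% on drug. BMF made up 19.8% of that total in A375 on drug and 2.51% in 451Lu on drug. Among the survival genes MCL1 held 87.1% of the total per kilobase at 48 h off drug in A375, against 54.0% on drug. In 451Lu BCL2A1 was the most abundant, with 48.3% at 120 h off drug, against 40.6% on drug, next to MCL1 with 46.1% at 120 h, against 34.1% on drug. BCL2 held 0.0653% of the survival total at 48 h in A375, against 2.48% on drug, and 0.0682% at 120 h in 451Lu, against 1.72% on drug.

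**Figure D4:**
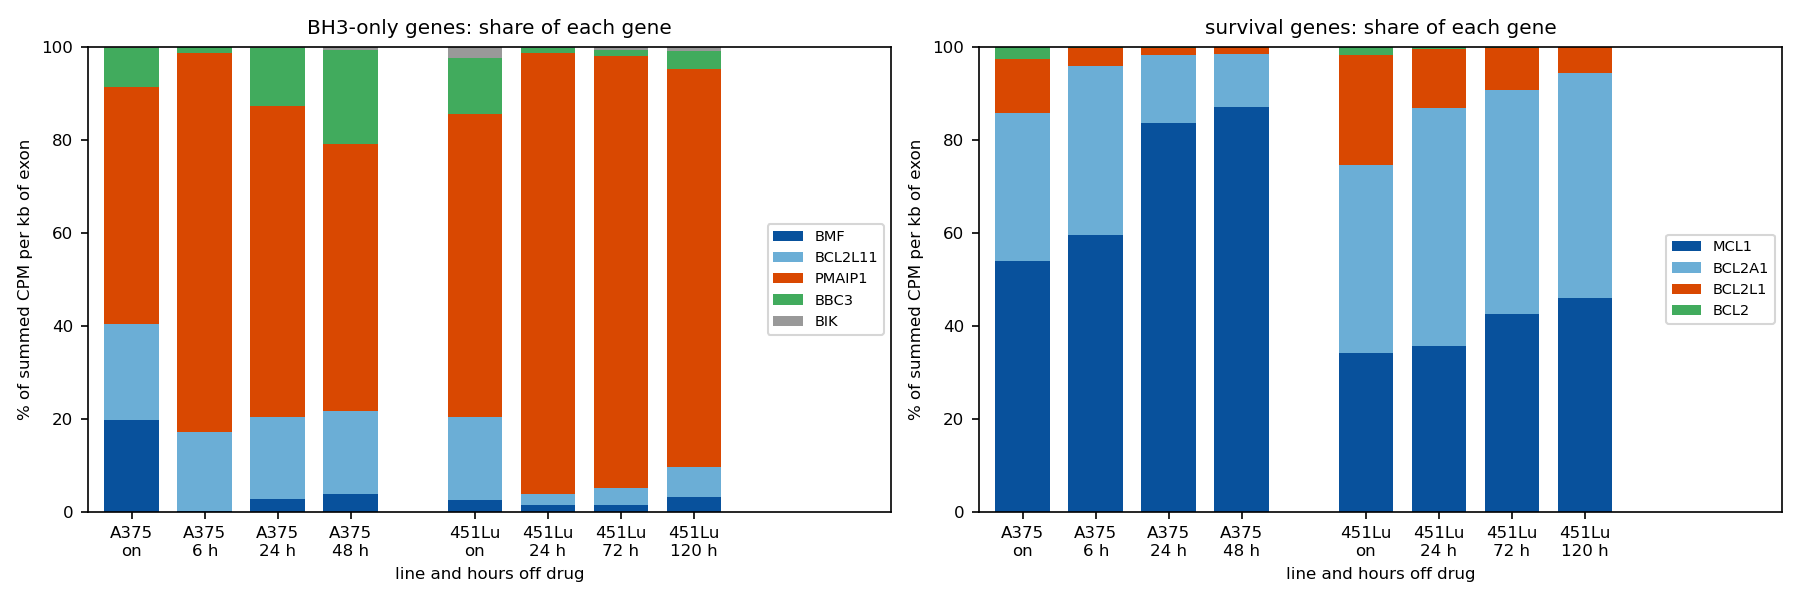
Share of each gene in the summed CPM per kilobase of exon of the 5 BH3-only genes (left) and the 4 survival genes (right), in percent, by line and hours off drug, from group means (n = 2). PMAIP1 fills 94.9% of the BH3-only bar in 451Lu at 24 h, and MCL1 grows to 87.1% of the survival bar in A375 at 48 h while BCL2A1 stays the larger in 451Lu.

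The rest of the death machinery was read through lists. Their counts are to be read against the same shares of all genes as the members' counts, which over the 3 times were 35.1% to 36.6% higher and 36% to 38.1% lower in A375, and 29.2% to 37.3% higher and 24.9% to 36.6% lower in 451Lu. The median log2 change of all genes lay between -0.06 and 0.03 in these 6 comparisons. Of 13 other BCL2 family genes 10 were tested in A375, where 5, 4 and 4 were higher and 4, 5 and 4 lower at 6, 24 and 48 h, and 9 in 451Lu, where 4, 4 and 5 were higher and 0, 3 and 4 lower at 24, 72 and 120 h. Their median log2 changes were 0.20, -0.17 and -0.14 in A375 and 0.26, -0.08 and 0.25 in 451Lu. BOK, a relative of the pore-forming effectors, rose at every time, to 17.1 ± 0.265 CPM at 24 h off drug in A375, against 5.67 ± 0.133 CPM on drug, and to 43.8 ± 3.65 CPM at 24 h off drug in 451Lu, against 22.6 ± 1.66 CPM on drug. BNIP3 and BNIP3L, which encode mitophagy receptors of the outer membrane, rose at every time in 451Lu. BNIP3 reached 264 ± 7.59 CPM at 120 h, against 53.9 ± 4.12 CPM on drug, and BNIP3L 369.6 ± 14.5 CPM at 120 h, against 90.5 ± 5.49 CPM on drug. In A375 BNIP3 rose at 24 and 48 h with log2 changes of 0.50 and 0.47 and BNIP3L fell at 6 h alone, with -0.27.

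Downstream of the pore, 8 apoptosome and caspase genes were tested in both lines. In A375 4, 1 and 2 were higher and 3, 3 and 5 lower at 6, 24 and 48 h, and in 451Lu 3, 2 and 3 were higher and 3, 2 and 2 lower at 24, 72 and 120 h. The list's median log2 changes were 0.05, -0.04 and -0.24 in A375 and 0.21, -0.01 and 0.14 in 451Lu. CASP9, the caspase of the apoptosome, rose in A375 to 31.4 ± 1.70 CPM at 24 h and 36.4 ± 1.99 CPM at 48 h, against 9.57 ± 0.759 CPM on drug. In 451Lu its log2 changes were -0.43, -0.08 and 0.29 at 24, 72 and 120 h, the middle one not past the threshold. CASP2 fell at every time in both lines, to 50.7 ± 1.62 CPM at 120 h in 451Lu, against 114 ± 1.49 CPM on drug.

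Of 8 inhibitors of apoptosis and their antagonists, 7 were tested in A375, with 5, 3 and 4 higher and 2, 2 and 1 lower, and 8 in 451Lu, with 4, 5 and 5 higher and 1 lower at each time. The medians on the log2 scale were 0.59, 0.12 and 0.24 in A375 and 0.18, 0.27 and 0.36 in 451Lu. BIRC3, a ubiquitin ligase that holds back caspase signalling and a target of NF-kB, rose at every time, to 17.3 ± 1.01 CPM at 6 h in A375, against 1.46 ± 0.0266 CPM on drug, and to 219 ± 36.8 CPM at 120 h in 451Lu, against 2.93 ± 1.35 CPM on drug. Its relative BIRC2 rose at every time as well, by 1.92 on the log2 scale in 451Lu at 120 h. BIRC5, which encodes survivin and is made chiefly by dividing cells, fell to 2.25 ± 0.639 CPM at 120 h in 451Lu, against 205 ± 4.06 CPM on drug, and to 97.7 ± 3.25 CPM at 48 h in A375, against 135 ± 3.12 CPM on drug. The 9 genes of the mitochondrial gate and of MCL1 turnover changed by less than 2-fold with 1 exception: 8 were tested in each line, and the exception was a fall in 451Lu at 120 h. It was MTCH2, the receptor of the outer membrane for the BH3-only protein BID, named here after its values were seen, at 85.4 ± 3.25 CPM at 120 h, against 173 ± 8.27 CPM on drug.

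All 10 transcription factors known to act on family members were tested. In A375 3 were higher at each time and 7, 6 and 6 lower, and in 451Lu 3, 3 and 4 were higher and 7, 7 and 6 lower. Median log2 changes were -0.74, -0.26 and -0.53 in A375 and -0.52, -0.63 and -0.46 in 451Lu, below those of all genes. MITF, also counted among the melanocyte markers, fell at every time, to 42.3 ± 0.242 CPM at 48 h in A375, against 383.5 ± 6.91 CPM on drug, and to 148 ± 9.70 CPM at 24 h in 451Lu, against 618 ± 6.92 CPM on drug. ATF4, the factor of the integrated stress response, fell at every time in both lines, with log2 changes of -1.67, -1.01 and -1.14 at 6, 24 and 48 h in A375 and -0.66, -0.55 and -0.27 at 24, 72 and 120 h in 451Lu. TP73, a transcription factor that can activate BH3-only genes, fell in 451Lu with log2 changes of -1.07, -2.08 and -2.31 and in A375 at 6 h with -1.24, where it had low levels of 0.520 ± 0.229 CPM, against 1.22 ± 0.0860 CPM on drug. MYC rose in A375 at 24 h, with a log2 change of 1.78, and fell at every time in 451Lu, with -1.34 at 120 h. In A375 it averaged 306 ± 21.7 CPM at 24 h and 299 ± 21.1 CPM at 48 h, against 86.8 ± 3.20 CPM on drug. JUN, an AP-1 factor, rose at every time in 451Lu, with 1.16, 1.05 and 1.64, and in A375 rose at 6 h (0.64) and fell at 24 h (-0.29) and 48 h (-0.72).

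The genes most like BMF and MCL1 over the 8 group means, with each line's mean removed, were looked for among 10291 genes tested in both lines with at least 5 CPM in some group of each line. KLHL7, a substrate adaptor of a ubiquitin ligase, was closest to BMF (Pearson r = 0.999), and the DNA polymerase gene POLI (0.981) was also among the closest. KLHL7 averaged 55.2, 25.5, 35.3 and 37.1 CPM on drug and at 6, 24 and 48 h in A375, and 27.7, 34.7, 35.5 and 35.3 CPM on drug and at 24, 72 and 120 h in 451Lu. Like BMF it was lowest at 6 h in A375 and higher off drug in 451Lu, over a smaller range. Closest to MCL1 were CXCL8, a chemokine gene (0.996), TICAM1, an adaptor of Toll-like receptors (0.995), and POPDC3 (0.994). CXCL8 averaged 3.26, 222, 1014 and 1547 CPM at those times in A375 and 7.61, 118, 324 and 953 CPM in 451Lu. The 8 means share libraries and depth, and these likenesses are a description of them.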

How the data were processed

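Total RNA of 16 libraries was sequenced, and the authors' deposited table holds raw counts of reads per Ensembl gene. Reads were aligned with TopHat2 2.1.0 and Bowtie 1.0.0 to GRCh38, per the submitters' processing notes; for the counter, the annotation release and the strand setting the sources used here name nothing. Groups and times were taken from the labels.

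Each line (8 libraries, 4 groups, 4 residual degrees of freedom) was fitted with edgeR 4.0.16 in R 4.3.3: TMM factors, filterByExpr (minimum count 10, minimum total 15), quasi-likelihood F test, two-sided, Benjamini-Hochberg adjustment over the 14449 genes tested in A375 and 13851 in 451Lu. For comparisons between lines, all 16 libraries entered 1 fit (15481 genes). CPM use TMM factors over all 16 libraries, so they are relative to the other genes and not amounts per cell. An SE is the size of the log2 change over the square root of its F. The common biological coefficient of variation came to 3.19% (A375) and 4.98% (451Lu). The scripts were tested on simulated data. Exon lengths and overlaps came from GENCODE 29, and promoters (250 bases before to 50 after a start) from RefSeq, which matched 8 of the 10 members.

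The members, the lists and the rule for naming genes were chosen with earlier results of these data known. All members were named; of each other list at most 5 genes were named, those called with a log2 change of at least 1 in at least 2 of the 6 comparisons with the on-drug group; DUSP6 was the check of withdrawal. For BMF and MCL1 the 3 genes with the highest Pearson r of log2(CPM + 1) were named, except that 1 gene of the BMF set is not reported here. DESeq2 1.42.0, other scalings, no filter, a replicate block, the joint fit and leaving out each library were tried as alternatives; plain library totals and exon lengths were added after seeing the data.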

Additional observations from a re-analysis of the deposited data

Results flagged for a closer look

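Of the 9 members tested, 8 had a 24 h change that differed between the lines by edgeR's quasi-likelihood test of the difference (A375 minus 451Lu, log2 scale, Benjamini-Hochberg adjusted p). They were 4 higher and 4 lower, where 27.4% of all genes were higher and 22% lower. BMF differed by -4.29 ± 0.31 (adjusted p = 1.37e-11) and PMAIP1 by -2.46 ± 0.12 (adjusted p = 2.41e-15). MCL1 differed by 1.89 ± 0.07 (adjusted p = 6.92e-18) and BBC3 by 1.84 ± 0.24 (adjusted p = 5.43e-07). BCL2 differed by -0.76 ± 0.17 (adjusted p = 0.000585), BCL2L1 by -0.74 ± 0.11 (adjusted p = 3.12e-06) and BAK1 by 0.66 ± 0.12 (adjusted p = 5.53e-05). BCL2L11 differed by 0.34 ± 0.13 (adjusted p = 0.0355), which most alternatives did not keep past the threshold, with adjusted p of up to 0.424. The errors are SE, and each group had 2 libraries. The lines also differed in their drugs, so line and regimen cannot be told apart.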

How the results depend on the processing

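Over 108 values of members (9 genes in 12 comparisons), 79 kept their direction and call under every alternative, 20 lost or gained a call under at least 1, and 11 changed sign under at least 1, of which 2 are also among the 20. None of the 11 was called, either as reported or under the alternative that turned it. Plain library totals turned the log2 changes of MCL1 between 24 and 48 h in A375 (0.031) and of BAK1 at 120 h in 451Lu (-0.18), no filter turned BAK1 between 24 and 48 h in A375 (-0.012), and upper quartile factors turned PMAIP1 between 24 and 72 h in 451Lu (0.021). Leaving out 1 library gave log2 changes on both sides of 0 in A375 for PMAIP1 at 48 h (-0.11 to 0.015) and, between 24 and 48 h, for BMF (-0.017 to 0.54) and BAK1 (-0.089 to 0.095). It did so in 451Lu for BCL2L11 (-0.097 to 0.031) and BAK1 (-0.096 to 0.0021) at 72 h, BAK1 at 120 h (-0.040 to 0.13), BMF (-0.36 to 0.40) and PMAIP1 (-0.13 to 0.056) between 24 and 72 h, and BMF between 72 and 120 h (-0.52 to 0.23), and between the lines on drug for BCL2L11 (-0.044 to 0.087). DESeq2 called 2223 genes and 0 members higher between 24 and 48 h in A375, against 4318 and 1 by edgeR, and 2982 genes and 2 members lower between 72 and 120 h in 451Lu, against 4531 and 4. In that last comparison leaving out 1 library gave 2 to 3 members lower (2 without the second 72 h or the first 120 h library) and 2851 genes, without the second 72 h library, to 4052. Plain library totals left 3 members higher in A375 at 24 h, against 5, and 2 lower between 24 and 72 h in 451Lu, against 1. The labels do not say what a shared replicate letter marks. Deviations of same-lettered libraries correlated at -0.18 to 0.039 between the groups of A375 and at -0.044 to -0.0066 between on-drug and off-drug 451Lu, but at 0.20 to 0.30 among the 3 off-drug groups of 451Lu, so pairing was not shown over all groups of either line and those 3 groups may be paired. With the replicate block 5 members were higher and 4 lower in A375 at 6 h, with no call of any member changed in any comparison. Without PMAIP1 and MCL1 the ratio of survival to BH3-only sums was 1.75, 12.9, 4.58 and 3.23 on drug and at 6, 24 and 48 h in A375 and 3.96, 10.9, 11.03 and 13.7 on drug and at 24, 72 and 120 h in 451Lu; per kilobase of exon it was 4.62, 27.4, 35.0 and 36.9 in A375 and 4.80, 2.93 and 4.81 on drug and at 24 and 72 h in 451Lu. Plain library totals shifted the median log2 change of all genes by -0.27, -0.23 and -0.19 at 6, 24 and 48 h in A375, by -0.18 and -0.28 at 72 and 120 h in 451Lu, by -0.10 between 72 and 120 h, by 0.20 between the lines on drug and by -0.20 in the 24 h difference. Upper quartile factors shifted it by -0.18, -0.14 and -0.13 in A375, by 0.21 between the lines on drug and by -0.14 in the 24 h difference, so member changes under about that size depend on the scaling. The genes higher and lower numbered 3459 and 7646 with plain totals and 3950 and 6965 with upper quartile factors in A375 at 6 h (5078 and 5511 with TMM), and 3581 and 7304 or 4200 and 6455 at 24 h (5234 and 5252). With plain totals they numbered 3933 and 6706 at 48 h (5287 and 5206) and 2741 and 1775 between 24 and 48 h (2048 and 2270) in A375. In 451Lu plain totals gave 3203 and 4304 at 24 h (4044 and 3447), 3717 and 5942 at 72 h (4742 and 4629), 3799 and 6815 at 120 h (5161 and 5063) and 1500 and 3396 between 72 and 120 h (2297 and 2234). In the 24 h difference they gave 2840 and 4813, and upper quartile factors 3268 and 4334 (4240 and 3402); on drug upper quartile factors gave 7124 higher in A375 and 4910 lower (5871 and 6084). The cause of these changes was not tested. Depth limits BIK, and BMF and BBC3 in A375 at 6 h.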
